A study of Mus musculus with 9 samples.

Results

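The genes described here are 9 members of the insulin and IGF1 signaling pathway in the paraventricular nucleus of the hypothalamus (PVN). They are the receptors Insr and Igf1r, the receptor substrates Irs1 and Irs2, the kinases Akt1 and Akt2, the transcription factors Foxo1 and Foxo3, and the kinase Gsk3b. They were taken by symbol from the 27179 genes of the count table, and all 9 were found and passed the filter on low counts, as did 17344 genes in all. The rule itself uses no measured value, but the members were chosen with earlier results of these data known. RNA was measured by bulk sequencing of PVN punches from male wild type C57BL/6 mice (C57BL/6J in the study's methods), 3 independent mice per group, that entered the study at postnatal day 35. Control mice ate chow with 16% of calories from fat for 12 weeks. HFD mice ate a diet with 60% of calories from fat for 12 weeks. HFD+Mino mice ate the same 60% diet for 12 weeks and received minocycline, a tetracycline antibiotic that dampens microglial activation, in the drinking water at 40 mg/kg per day for the last 6 weeks. No group received minocycline on chow, so the drug was compared only under the high-fat diet.

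Insulin and IGF1 bind receptor tyrosine kinases that phosphorylate IRS adaptors. These recruit PI 3-kinase, whose lipid product brings AKT to the membrane, where it is activated. Active AKT phosphorylates FOXO factors, which then leave the nucleus, and GSK3, which is inhibited. In the hypothalamus, insulin acting through this route lowers food intake and hepatic glucose output, and resistance to it accompanies diet-induced obesity. Much of this signaling runs through phosphorylation, which RNA counts do not measure.

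The promoter sequences of both AKT genes and both IRS genes are shown. Akt1 was lower and Akt2 higher in HFD than in Control. The ratio of Irs1 to Irs2 varied more among the HFD+Mino mice than in the other groups. Ratios of the other paralogs are given below as well. Each sequence is the 250 bases before a transcription start in RefSeq (GRCm38.p6), written 5′ to 3′ on the gene's strand, with matches to 4 motifs in capitals. The motifs were the GC box GGGCGG bound by SP1, the E-box CACGTG, the FOXO motif GTAAACA and the CRE TGACGTCA, on both strands, with overlapping matches counted. A window was found for 8 of the 9 genes, and Insr is named only.

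Akt1, chr12:112674277-112674526, minus strand: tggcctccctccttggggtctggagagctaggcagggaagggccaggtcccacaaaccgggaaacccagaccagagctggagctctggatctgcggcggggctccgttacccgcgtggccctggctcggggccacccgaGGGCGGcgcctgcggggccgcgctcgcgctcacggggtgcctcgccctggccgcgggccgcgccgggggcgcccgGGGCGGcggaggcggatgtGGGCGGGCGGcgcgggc

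Akt1, chr12:112674885-112675134, minus strand: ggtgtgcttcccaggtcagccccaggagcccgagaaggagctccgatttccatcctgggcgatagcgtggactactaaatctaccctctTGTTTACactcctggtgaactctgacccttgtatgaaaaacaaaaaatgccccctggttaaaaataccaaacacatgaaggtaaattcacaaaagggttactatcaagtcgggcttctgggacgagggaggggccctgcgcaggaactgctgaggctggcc

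Akt2, chr7:27591302-27591551, plus strand: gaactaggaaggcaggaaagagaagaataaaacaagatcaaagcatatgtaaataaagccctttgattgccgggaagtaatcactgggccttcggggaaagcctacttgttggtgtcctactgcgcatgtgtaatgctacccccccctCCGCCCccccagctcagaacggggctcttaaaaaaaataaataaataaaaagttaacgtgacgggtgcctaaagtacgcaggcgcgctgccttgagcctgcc

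Irs1, chr1:82291440-82291689, minus strand: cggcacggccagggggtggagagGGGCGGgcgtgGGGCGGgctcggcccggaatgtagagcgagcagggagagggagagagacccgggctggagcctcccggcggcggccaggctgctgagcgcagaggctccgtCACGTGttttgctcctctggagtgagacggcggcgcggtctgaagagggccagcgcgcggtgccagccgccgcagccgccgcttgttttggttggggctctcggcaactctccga

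Irs2, chr8:11008930-11009179, minus strand: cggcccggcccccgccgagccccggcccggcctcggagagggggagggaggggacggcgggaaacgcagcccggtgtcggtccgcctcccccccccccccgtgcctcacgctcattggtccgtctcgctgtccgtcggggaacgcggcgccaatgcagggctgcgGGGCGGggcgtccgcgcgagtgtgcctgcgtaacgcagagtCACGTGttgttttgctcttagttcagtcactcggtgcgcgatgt

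The first Akt1 window held 4 GC boxes, of which 2 overlap, and was 78.4% G and C. The other Akt1 window lies before a start further upstream and held the only FOXO motif in the windows of these genes, at 52% G and C. The Akt2 window held 1 GC box at 48.8% G and C, while the other Akt2 starts in RefSeq had none. Irs1 and Irs2 each held 1 E-box, with 2 and 1 GC boxes and with 72.4% and 72.8% G and C. Over 32851 mouse windows of the same length, a GC box was found in 32.7%, an E-box in 6.02%, a FOXO motif in 3.17% and a CRE in 1.55%, and the median G and C content was 52.4%. None of the windows of these genes held a CRE. A match is a run of letters and was not tested for binding.

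Libraries held between 17728590 and 42326213 assigned reads, the fewest in HFD replicate 1. Some libraries stood apart from their labels or groups. In Control replicate 1, Sim1, a transcription factor of PVN neurons, was at 0.77 CPM against 2.51 to 35.7 CPM in the other samples, Avp, which encodes vasopressin, was at 0.149 CPM and Oxt, which encodes oxytocin, was at 0.77 CPM. Crh, which encodes corticotropin-releasing hormone, was at 20.6 CPM there, within the 14.4 to 153 CPM of the other samples. CPM values were computed with TMM-scaled library sizes. The summed PVN markers (6 genes) reached 27.8 CPM there, mostly from Crh, whereas the other samples held between 932 and 37726 CPM. Of the neuropeptides of the neighbouring lateral hypothalamus, Pmch and Hcrt were at 2560 and 812.5 CPM in Control replicate 2 and at 390.5 and 73.4 CPM in Control replicate 1, while no HFD sample passed 22.5 CPM of Pmch or 0.502 CPM of Hcrt. The summed markers of neighbouring regions (6 genes) ran from 159 to 3477 CPM in Control, from 59.2 to 312 CPM in HFD and from 88.9 to 232 CPM in HFD+Mino, and none was called. The part of the punched region in the members' differences was not tested. HFD+Mino replicate 3 correlated across genes at 0.972 and 0.970 with Control replicates 2 and 3 and at 0.937 and 0.917 with the other mice of its own group. HFD+Mino replicates 1 and 2 also stood apart, with Avp at 28049 and 22180 CPM and Oxt at 8907 and 8696 CPM. No other sample passed 1984 CPM of Avp or 1409 CPM of Oxt. Their TMM factors, 0.837 and 0.879, were the lowest of the series. Which mice are typical of this group was not tested, and no fit left out replicates 1 and 2 together. The precursor ribosomal RNA Rn45s took 0.350% to 0.430% of counts in HFD, 0.0266% to 0.0438% in Control and 0.0450% to 0.113% in HFD+Mino. Some results below are also given without Control replicate 1 or HFD+Mino replicate 3, and not every change is listed.

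Genes were tested with the quasi-likelihood test of edgeR over all 9 samples, and p-values were adjusted by Benjamini-Hochberg over all tested genes. A gene was called at an adjusted p under 0.01 and a difference of at least 1.5-fold. The 3-way test also required HFD to be the highest or lowest group, with the 1.5-fold distance taken from the log2 mean over all 3 groups. None of the 9 members was called in HFD against Control, where 1.74% of all tested genes were called. None was called in HFD+Mino against HFD, with 4.15% of all genes, nor in the 3-way test, with 2.13%. HFD+Mino against Control called 0% of all genes, although 21.3% had an unadjusted p under 0.05. At an unadjusted p under 0.05, 7 members stood out in HFD against Control, 6 in HFD+Mino against HFD and 2 in HFD+Mino against Control, where the shares of all genes were 20.5%, 41.3% and 21.3%. At an adjusted p under 0.05 and 1.5-fold, 3 members passed between HFD and Control (Insr, Akt1 and Gsk3b, with 5.77% of all genes), 5 between HFD+Mino and HFD (Insr, Irs1, Akt2, Foxo1 and Gsk3b, with 27.4%) and 3 in the 3-way test (Insr, Akt1 and Foxo1, with 13.0%). DESeq2 called Akt1, Gsk3b and Insr between HFD and Control, where it called 6.91% of all genes. A replicate block in Control and HFD+Mino alone, whose same-numbered samples deviated together, called 3 members in the 3-way test, 2 between HFD and Control and 3 between HFD+Mino and HFD, with 13.2%, 6.22% and 25.6% of all genes. The labels name no such pairing, and the block was chosen from these same counts. Calls under it here and below are therefore not independent support.

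**Figure D1:**
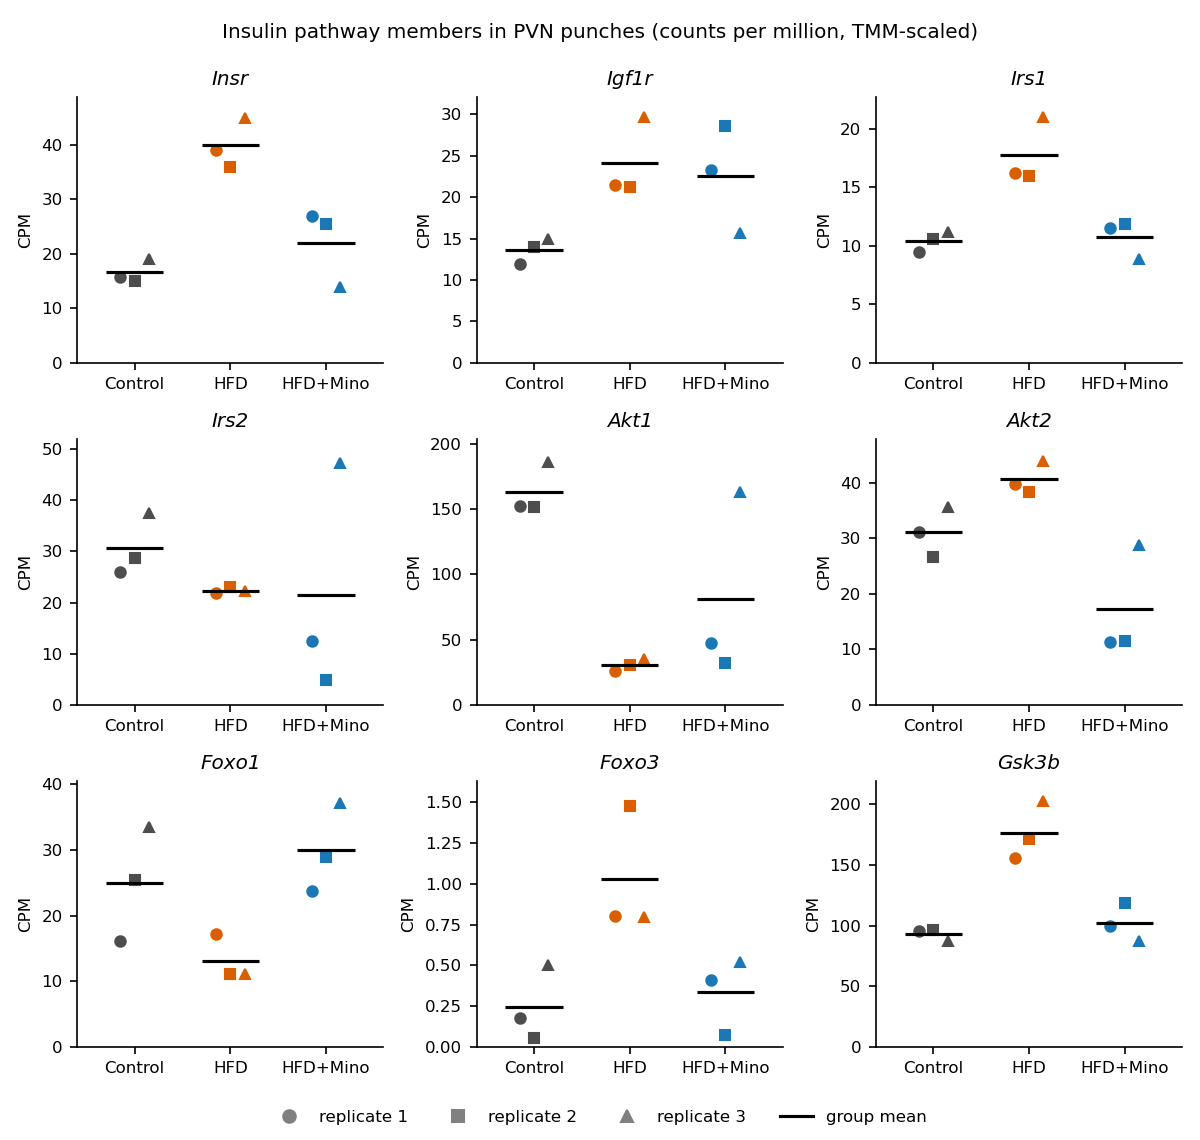
CPM (vertical axes, linear from 0) of the 9 genes in each of the 9 samples, by group; marker shapes give the replicate number and bars the group mean. The HFD samples of Insr, Irs1, Akt2, Foxo3 and Gsk3b lie above the 6 other samples, and HFD+Mino replicate 3 stands apart from its group for Akt1, Akt2 and Irs2.

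Both receptors were higher in every HFD sample than in every Control sample. The share of all genes for which a group lay apart from Control was not counted, for these or the genes below. Insr encodes the insulin receptor, on chromosome 8 (3150922 to 3279649, minus strand, GRCm38). It was at 15.8, 14.9 and 19.1 CPM in Control, at 39.1, 35.8 and 44.8 CPM in HFD and at 26.9, 25.4 and 13.9 CPM in HFD+Mino. Every HFD sample lay above the 6 others, while HFD+Mino and Control overlapped through HFD+Mino replicate 3. The mean was 2.40 times higher in HFD than in Control (log2 difference 1.27 ± 0.28 SE, adjusted p = 0.0232), and HFD+Mino was below HFD by 0.86 ± 0.27 (adjusted p = 0.0397). Neither passed the threshold. With a replicate block in Control and HFD+Mino alone, Insr passed the 3-way test (distance of HFD from the mean 0.71, adjusted p = 0.00892), and without HFD+Mino replicate 3 it passed between HFD and Control (adjusted p = 0.00412). Without that mouse 3.08% of all genes were called between HFD and Control. The Insr difference between HFD+Mino and HFD was then -0.61 (adjusted p = 0.0540).

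Igf1r encodes the IGF1 receptor, the closest relative of Insr here, on chromosome 7 (67952257 to 68233668, plus strand). It was at 11.97, 14.03 and 14.98 CPM in Control, at 21.4, 21.2 and 29.7 CPM in HFD and at 23.4, 28.6 and 15.7 CPM in HFD+Mino. Both groups on the high-fat diet lay above Control without overlap and overlapped each other. HFD differed from Control by 0.82 ± 0.27 on the log2 scale (adjusted p = 0.114), HFD+Mino from Control by 0.72 ± 0.27 (adjusted p = 0.176) and HFD+Mino from HFD by -0.10 ± 0.27 (adjusted p = 0.820). Without Control replicate 1 the first was 0.73 (adjusted p = 0.332), and without HFD+Mino replicate 3 the second was 0.92 (adjusted p = 0.0271).

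Of the substrates, Irs1 was higher in every HFD sample than in any other sample, and Irs2 was not. Irs1 (chromosome 1, 82233105 to 82291439, minus strand) encodes a docking protein that carries the signal from both receptors to PI 3-kinase. It was at 9.49, 10.6 and 11.2 CPM in Control, at 16.26, 15.98 and 21.0 CPM in HFD and at 11.6, 11.9 and 8.91 CPM in HFD+Mino. The HFD samples again lay above all others, with a log2 difference of 0.77 ± 0.25 from Control (adjusted p = 0.0987) and of -0.72 ± 0.25 for HFD+Mino against HFD (adjusted p = 0.0488), neither past the threshold. Without Control replicate 1 the first was 0.71 (adjusted p = 0.287), and without HFD+Mino replicate 3 the second was -0.60 (adjusted p = 0.0828).

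Irs2 (chromosome 8, 10984681 to 11008929, minus strand) encodes the substrate most tied to hypothalamic control of feeding and to beta cell survival. It was at 26.0, 28.7 and 37.5 CPM in Control, at 21.8, 23.0 and 22.2 CPM in HFD and at 12.4, 4.79 and 47.3 CPM in HFD+Mino. The 3 HFD mice lay close together, while the HFD+Mino mice spanned the lowest and the highest value of the whole series. None of its comparisons had an adjusted p under 0.632. Without HFD+Mino replicate 3, Irs2 was lower in HFD+Mino than in Control by 1.84 on the log2 scale and was called (adjusted p = 0.00958). That comparison then called 6.28% of all genes, against 0% with all mice, so the call rests on leaving out 1 mouse. Without it, Irs2 differed by -1.38 between HFD+Mino and HFD (adjusted p = 0.0148).

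Akt1 was lower in every HFD sample than in every Control sample, whereas Akt2 was higher. Akt1 (chromosome 12, 112653821 to 112674884, minus strand) encodes the AKT kinase most tied to growth and survival. It was at 153, 151 and 186 CPM in Control, at 25.6, 30.7 and 35.2 CPM in HFD and at 47.5, 32.0 and 163 CPM in HFD+Mino. All HFD samples lay far below Control. HFD+Mino replicates 1 and 2 were close to HFD, replicate 2 within its range, and replicate 3 was within the range of Control. The Control mean was 5.35 times the HFD mean (log2 difference -2.42 ± 0.50, adjusted p = 0.0178), the largest difference from Control among the 9 genes. HFD+Mino exceeded HFD by 1.41 ± 0.49 (adjusted p = 0.0514), and without HFD+Mino replicate 3 this difference was 0.38 (adjusted p = 0.233). Without that mouse Akt1 was called lower both in HFD (-2.42, adjusted p = 0.000159) and in HFD+Mino (-2.04, adjusted p = 0.00383) than in Control. These comparisons then called 3.08% and 6.28% of all genes. Akt1 was also called between HFD and Control with the replicate block in all samples (adjusted p = 0.00889), with the block in Control and HFD+Mino alone (adjusted p = 0.00197, and 0.00144 in the 3-way test) and with the trend on gene length removed (adjusted p = 0.00970). Its GC-richest 100 nt held 88% G and C, at the 96.8th percentile of tested genes.

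Akt2 (chromosome 7, 27591552 to 27640826, plus strand) encodes the AKT kinase most tied to insulin-stimulated glucose uptake. It was at 31.1, 26.6 and 35.7 CPM in Control, at 39.8, 38.4 and 43.9 CPM in HFD and at 11.3, 11.5 and 28.8 CPM in HFD+Mino. HFD lay above the 6 other samples, and HFD+Mino replicates 1 and 2 lay below all of them. HFD differed from Control by 0.39 ± 0.34 (adjusted p = 0.557) and HFD+Mino from HFD by -1.24 ± 0.35 (adjusted p = 0.0252). The latter was called with the block in Control and HFD+Mino alone (-1.37, adjusted p = 0.00170) and without HFD+Mino replicate 3 (-1.84, adjusted p = 0.000722). Without that mouse Akt2 was also called lower in HFD+Mino than in Control (-1.45, adjusted p = 0.00433). The shares of all genes called were then 21.4% between HFD+Mino and HFD and 6.28% between HFD+Mino and Control.

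The FOXO factors, which AKT keeps out of the nucleus, were present at very different depths. Foxo1 (chromosome 3, 52268337 to 52350109, plus strand) encodes the factor that drives Agrp and restrains Pomc in arcuate neurons. It was at 16.1, 25.5 and 33.5 CPM in Control, at 17.2, 11.1 and 11.1 CPM in HFD and at 23.7, 28.9 and 37.2 CPM in HFD+Mino. HFD overlapped Control through Control replicate 1, the library with Sim1, Avp and Oxt under 1 CPM, and lay below HFD+Mino without overlap. HFD differed from Control by -0.93 ± 0.32 (adjusted p = 0.123, and -1.17 with adjusted p = 0.0715 without Control replicate 1), and HFD+Mino exceeded HFD by 1.19 ± 0.32 (adjusted p = 0.0219). The latter was called with the block in Control and HFD+Mino alone (1.17, adjusted p = 0.00329, and 0.00823 in the 3-way test) and with the length trend removed (1.71, adjusted p = 0.00529).

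Foxo3 (chromosome 10, 42181845 to 42276695, minus strand) encodes a related factor of stress resistance and was barely detected. It had 7, 2 and 17 counts in Control, 16, 51 and 32 in HFD and 12, 2 and 19 in HFD+Mino. After scaling, HFD lay above the 6 other samples, from 0.797 to 1.48 CPM. Its log2 difference from Control was 2.07 ± 0.92 (adjusted p = 0.232), and DESeq2 gave no adjusted p at this depth.

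Gsk3b (chromosome 16, 38089001 to 38246084, plus strand) encodes the kinase that AKT inhibits and that phosphorylates glycogen synthase and beta-catenin. It was at 95.8, 96.8 and 87.1 CPM in Control, at 156, 171 and 203 CPM in HFD and at 100.1, 119 and 87.4 CPM in HFD+Mino. All HFD samples lay above the others, and Control and HFD+Mino overlapped. The HFD mean was 1.89 times that of Control (log2 difference 0.92 ± 0.20, adjusted p = 0.0248), and HFD+Mino was below HFD by 0.79 ± 0.20 (adjusted p = 0.0191). Both were called with the block in Control and HFD+Mino alone (adjusted p = 0.00504 and 0.00325). With the trend on gene length removed they were 0.53 and -0.21 (adjusted p = 0.164 and 0.493).

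**Figure D2:**
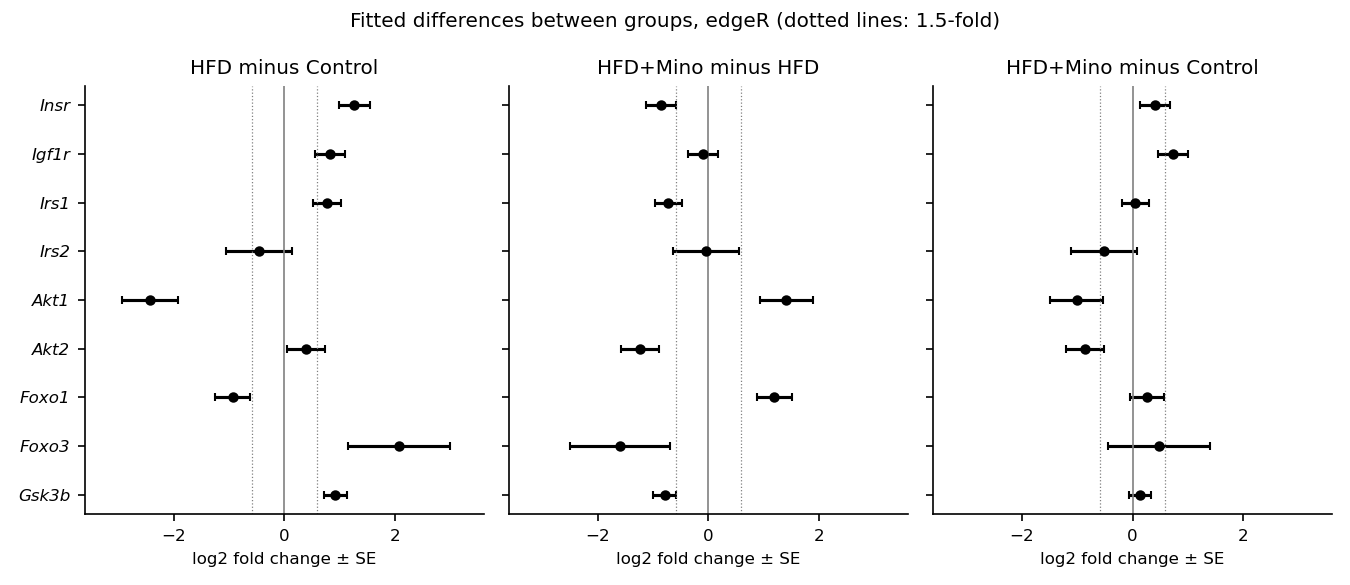
Fitted log2 fold changes (horizontal axes) with their SE for the 9 genes in the 3 comparisons; dotted lines mark 1.5-fold. Akt1 has the lowest value in HFD minus Control (-2.42), and in HFD+Mino minus HFD Akt1 and Foxo1 are the 2 genes above 0.

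Over the 9 genes the median log2 difference was 0.77 for HFD against Control, -0.72 for HFD+Mino against HFD and 0.13 for HFD+Mino against Control, and over all tested genes it was 0.00, 0.01 and -0.02. HFD against Control and HFD+Mino against HFD share the HFD samples. HFD lay above the 6 other samples for 5 of the 9 genes and below them for none, against 13.4% and 9.62% of all genes. Without Control replicate 1, the log2 differences of Insr, Akt1 and Gsk3b between HFD and Control were 1.23, -2.47 and 0.94 (adjusted p = 0.0811, 0.0346 and 0.0825).

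The members are long genes, with a median exon length of 8665 nt against 4334 nt over tested genes, and differences between groups moved with exon length. The median log2 difference between HFD and Control ran from -0.27 in the shortest of 10 length classes of equal size to 0.48 in the longest, and that between HFD+Mino and HFD from 1.10 to -0.60. Insr, Igf1r and Gsk3b fall in the longest class, where HFD lay above all others for 35.2% of genes. Irs1, Foxo1 and Foxo3 fall in the next, with 27.5%. Akt2 and Irs2 fall in the class after that, with 22.1%, and Akt1, the shortest member at 4098 nt, in class 5 from the shortest, with a median difference between HFD and Control of -0.02. With a smooth trend on length removed from each sample, the difference between HFD and Control was 0.77 for Insr, 0.53 for Gsk3b, 0.42 for Irs1 and 0.28 for Igf1r (adjusted p = 0.115, 0.164, 0.338 and 0.546). Those of Akt1 and Foxo1 were -2.41 and -1.22 (adjusted p = 0.00970 and 0.0281). The difference between HFD+Mino and HFD was then -0.22 for Insr, -0.15 for Irs1 and -0.81 for Akt2 (adjusted p = 0.580, 0.687 and 0.0779). That of Foxo1 was 1.71, as given above. The part of length in the differences between groups was not tested.

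**Figure D3:**
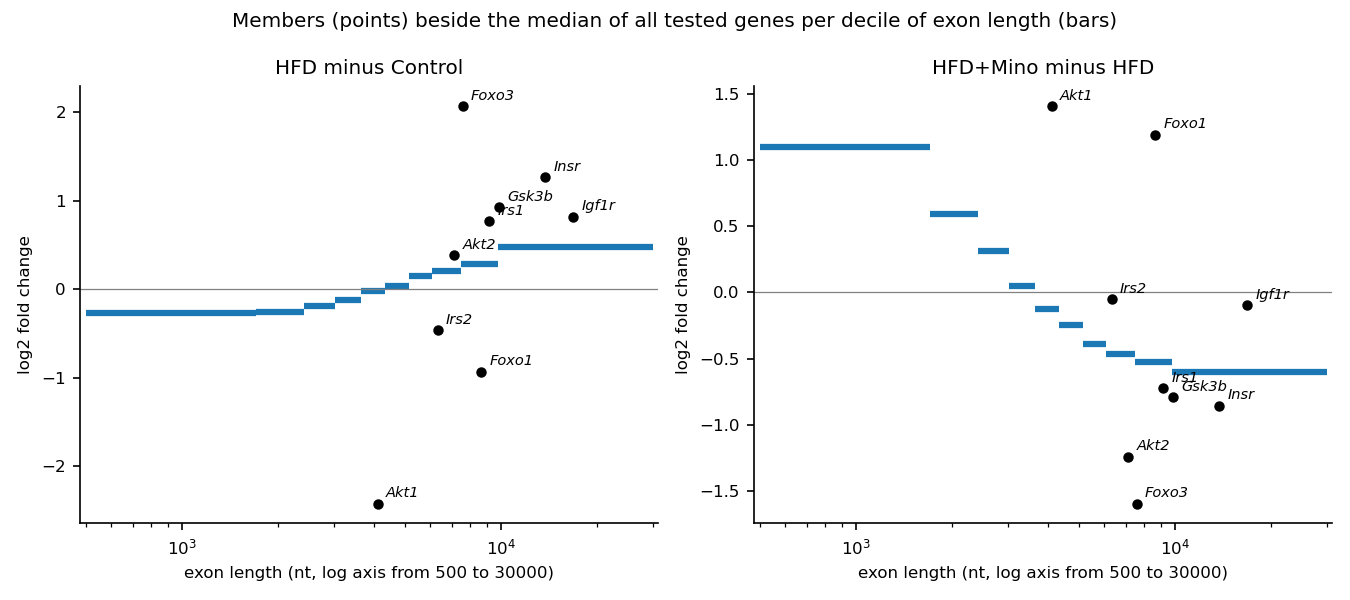
Log2 fold change (vertical axes) against exon length (log axis) for the 9 genes (points) and the median of all tested genes in each length class (bars). In the left panel Insr, Igf1r, Gsk3b, Irs1, Foxo3 and Akt2 lie above the bar of their class and Akt1, Foxo1 and Irs2 below it.

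Ratios of paralogs within a sample do not depend on how libraries were scaled. They were compared among the 3 groups by an exact permutation test over samples, adjusted over 4 ratios, for which the smallest p possible was 0.00357. Ratios of other gene pairs were not tested, so how common such separation is in this series is not known. For single genes, HFD lay beyond the 6 other samples in 23.0% of all tested genes. Akt1 counts were 4.91, 5.68 and 5.195 times those of Akt2 in Control, 0.643, 0.800 and 0.800 times in HFD and 4.19, 2.78 and 5.66 times in HFD+Mino. HFD lay apart from both groups, and HFD+Mino overlapped Control (exact permutation p = 0.0107, adjusted p = 0.0214). In HFD+Mino replicates 1 and 2 both kinases were low, and in HFD only Akt1 was below Control.

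The ratio of Insr to Igf1r was 1.32, 1.06 and 1.27 in Control, 1.82, 1.69 and 1.51 in HFD and 1.15, 0.886 and 0.880 in HFD+Mino. HFD was again apart from both other groups (exact permutation p = 0.00714, adjusted p = 0.0214). The ratio of Irs1 to Irs2 was 0.366, 0.368 and 0.298 in Control, 0.745, 0.696 and 0.947 in HFD and 0.934, 2.47 and 0.189 in HFD+Mino, so that HFD lay above Control while the HFD+Mino mice ranged below and above both (exact permutation p = 0.329). The ratio of Foxo1 to Foxo3 was lower in HFD, from 7.47 to 20.8, than in the other samples, from 55.4 to 361 (exact permutation p = 0.0214, adjusted p = 0.0286). It rests on as few as 2 Foxo3 counts, and its adjusted p was 0.0524 to 0.148 without Control replicate 1, any single HFD sample, or HFD+Mino replicate 1 or 3. With samples permuted within replicate numbers, the adjusted p of the Akt1, Insr and Foxo1 ratios was 0.0741. These numbers come from the sample titles, and the labels do not say that they mark batches or pairs of mice.

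**Figure D4:**
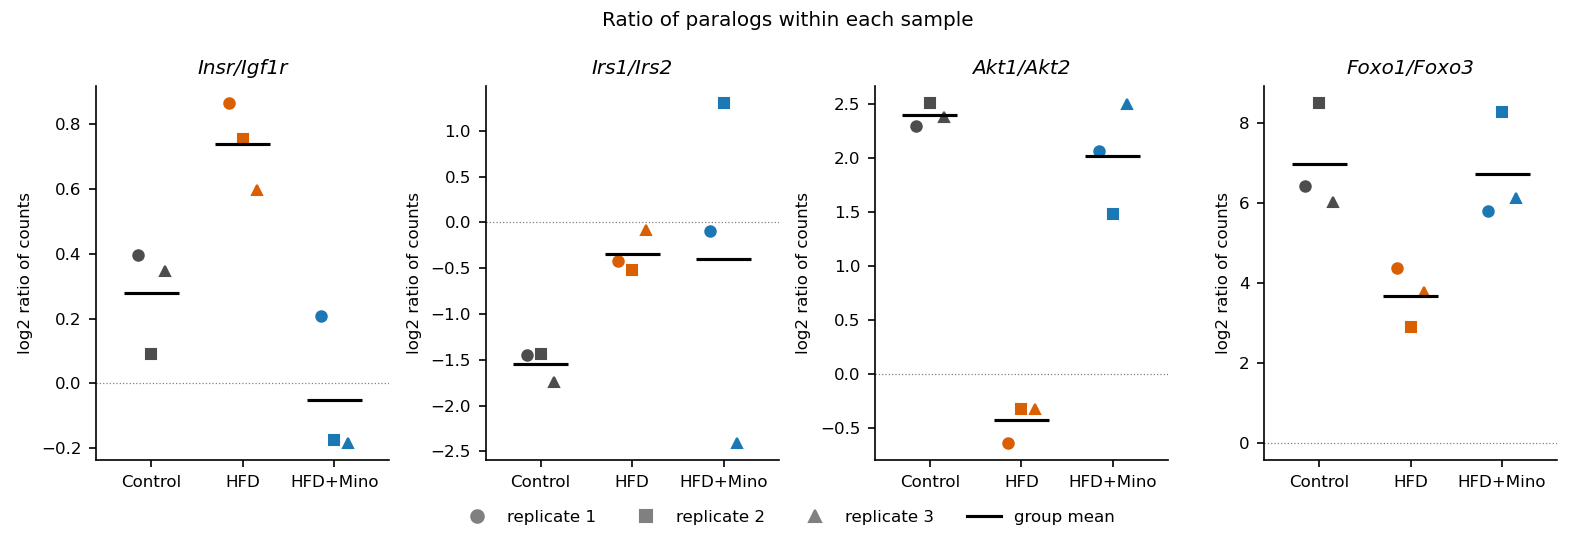
Log2 ratio of counts of 2 paralogs (vertical axes) in each of the 9 samples, by group, with the group mean as a bar. HFD samples are apart from the 6 others for Insr/Igf1r, Akt1/Akt2 and Foxo1/Foxo3, and the HFD+Mino samples of Irs1/Irs2 span the whole range. Other gene pairs were not tested.

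Levels per kilobase of exon set the genes beside each other. In Control, Akt1 was highest at 39.8 ± 4.73 CPM per kb (SD, n = 3), followed by Gsk3b at 9.48 ± 0.541, Irs2 at 4.86 ± 0.949, Akt2 at 4.37 ± 0.637 and Foxo1 at 2.89 ± 1.00. Irs2 and Akt2, and Akt2 and Foxo1, overlapped between mice. Insr and Irs1, which also overlapped, were at 1.21 ± 0.159 and 1.14 ± 0.0925 CPM per kb, Igf1r at 0.814 ± 0.0917 and Foxo3 at 0.0322 ± 0.0304. In HFD the order began with Gsk3b at 17.97 ± 2.44 and Akt1 at 7.44 ± 1.17, which did not overlap, and Akt2 followed at 5.71 ± 0.403. In HFD+Mino Akt1 was first again at 19.7 ± 17.5 and overlapped Gsk3b at 10.4 ± 1.61.

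The genes closest to each member across the 9 samples were listed by the Pearson correlation of log2 CPM, as a description over samples that share groups. For Insr they were Akap11, Srgap3 and Kdm3b (r from 0.973 to 0.993), and for Akt1 they included Zranb1 and Ttc7b (r = 0.993 for each). Opcml was among the closest 3 of both Irs1 (r = 0.979) and Gsk3b (r = 0.980). Among members, Irs1 and Gsk3b (r = 0.957) and Insr and Irs1 (r = 0.948) were most alike, and Insr and Akt1 were most opposed (r = -0.905). The top 1% of all genes correlated with Insr at 0.899 or more and with Akt1 at 0.916 or more.

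Some other genes of the pathway were called, and whether their share of calls differed from that of the members was not tested. Of 45 such genes, all tested, the 3-way test called Gsk3a lower and Pik3r3 higher in HFD, where it called 1.21% and 0.917% of all genes. Gsk3a, the paralog of Gsk3b with the same role under AKT, was at 72.2, 67.7 and 75.3 CPM in Control, at 4.47, 5.95 and 5.85 CPM in HFD and at 28.7, 15.4 and 80.5 CPM in HFD+Mino. HFD lay below every other sample, and HFD+Mino replicate 3 was again near Control. Gsk3a fell by 3.72 ± 0.52 on the log2 scale in HFD against Control (adjusted p = 0.00234) and rose by 2.93 ± 0.50 in HFD+Mino against HFD (adjusted p = 0.00604), comparisons in which 1.42% of all genes were called lower and 1.98% higher. In these comparisons Gsk3b was at 0.92 and -0.79, neither called. Both calls were lost without any single HFD sample or Control replicate 2 (adjusted p from 0.0106 to 0.0379), and the second also without HFD+Mino replicate 1 (adjusted p = 0.0197). The second was also lost in a fit of its 6 samples alone (2.92, adjusted p = 0.0123), and the 3-way call without any of these 5 samples (adjusted p from 0.0152 to 0.0449). Without HFD+Mino replicate 3 the second was 2.02 and still called (adjusted p = 0.000904). The 3-way call of Pik3r3 was at the edge (0.71, adjusted p = 0.00978) and was lost with the length trend removed (0.54, adjusted p = 0.0350), with the replicate block in all samples (0.72, adjusted p = 0.0119), without any Control or HFD sample and without HFD+Mino replicate 1.

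Between HFD+Mino and HFD, 5 genes of the list were called lower, as were 2.16% of all genes. They were Pik3r3, a regulatory subunit of PI 3-kinase (-1.499), Pdpk1, the kinase that phosphorylates AKT at its activation loop (-1.07), Mtor, the kinase of the mTOR complexes (-1.39), Inppl1, a lipid phosphatase that opposes PI 3-kinase (-1.84), and Trib2, an AKT-binding pseudokinase (-1.75). Their adjusted p ranged from 0.00453 to 0.00966. With the length trend removed only Trib2 of these 5 was still called, and each of the 5 was lost without any single HFD sample, Control replicate 2 or HFD+Mino replicate 1. Mtor, Inppl1 and Trib2 were also lost without HFD+Mino replicate 2, and Pdpk1, Inppl1 and Trib2 in a fit of the 6 samples compared. Without the length trend the difference was -1.11 for Pik3r3, -0.48 for Pdpk1, -0.80 for Mtor, -1.43 for Inppl1 and -1.57 for Trib2.

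By role, HFD was above Control for all 5 PI 3-kinase subunits on the list (median log2 difference 0.64), as for 8721 of 17344 tested genes. The list held only Pik3cb, Pik3cd, Pik3r1, Pik3r2 and Pik3r3 of this enzyme. For Pik3r1, Pik3r2 and Pik3r3 HFD lay above the 6 other samples. The 7 ligands and binding proteins held no gene with HFD apart from the others. Of the 11 negative regulators, HFD was apart and higher for Grb10, Ptprf, Inppl1 and Trib2. Over the 45 genes the medians were 0.34 between HFD and Control and -0.53 between HFD+Mino and HFD. HFD lay above all others for 15 and below them for 2, Grb2 and Gsk3a, where the shares of all genes were 13.4% and 9.62%. In length classes 8 to 10, HFD lay above all others for 22.1% to 35.2% of genes. Length was not accounted for in the counts of genes with HFD apart. With the replicate block in Control and HFD+Mino alone, 14 of the 45 genes were called in the 3-way test, 10 in HFD against Control and 17 in HFD+Mino against HFD, where 13.2%, 6.22% and 25.6% of all genes were called.

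**Figure D5:**
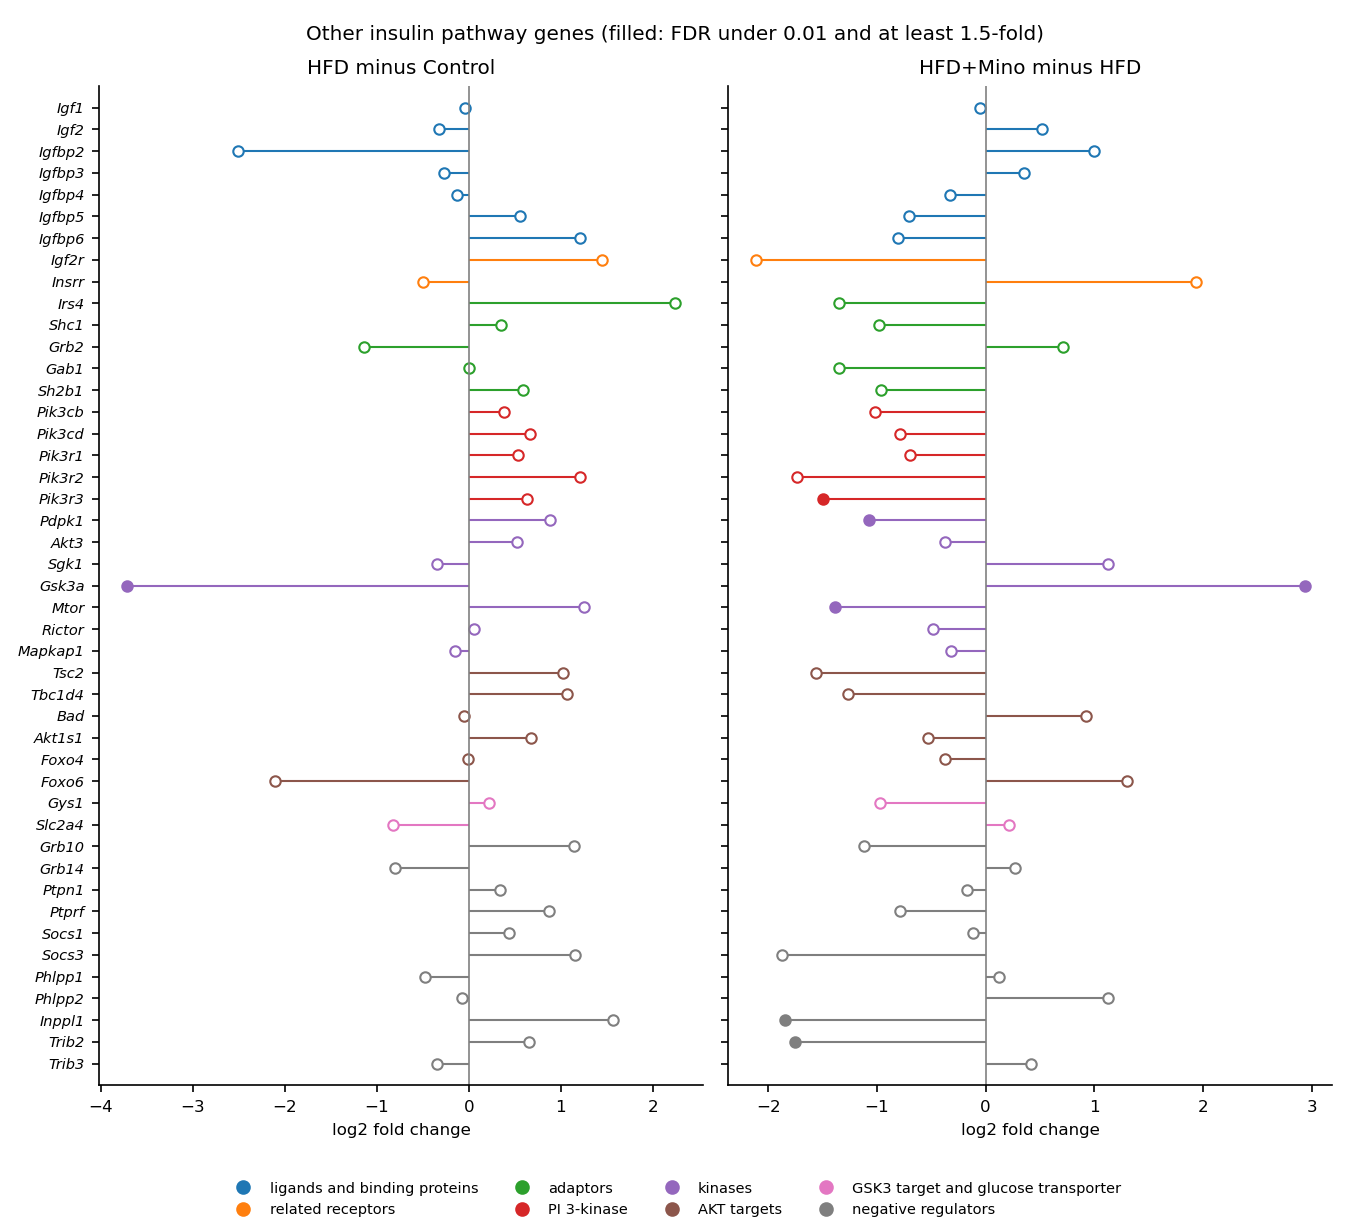
Log2 fold change (horizontal axes) of 45 other genes of the pathway in 2 comparisons, coloured by role; filled points were called. Gsk3a has the lowest value in HFD minus Control (-3.72) and the highest in HFD+Mino minus HFD (2.93).

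Of 21 genes known as FOXO targets, 19 were tested, and Igfbp1 and Trim63 were below the filter on low counts. The 3-way test, which called 2.13% of all genes, called 1, Cited2, a transcriptional co-regulator. It was at 37.7, 38.9 and 65.7 CPM in Control, at 3.26, 6.27 and 5.88 CPM in HFD and at 48.4, 24.9 and 69.9 CPM in HFD+Mino, with HFD below every other sample. It fell by 3.20 in HFD against Control (adjusted p = 0.00176) and rose by 3.21 in HFD+Mino against HFD (adjusted p = 0.00204). Both calls were lost without any single HFD sample (adjusted p from 0.0119 to 0.0178), and the second also without HFD+Mino replicate 1 (adjusted p = 0.0110), while the 3-way call was lost without any of these samples or Control replicate 2 (adjusted p from 0.0116 to 0.0328). With the block in Control and HFD+Mino alone, 3 targets were called in the 3-way test, with 13.2% of all genes. The median over the 19 genes was -0.19 between HFD and Control and -0.05 between HFD+Mino and HFD.

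In bulk tissue, fewer cells of a type and less RNA per cell cannot be told apart. Summed markers of some other cells moved with the groups, while those of oligodendrocytes overlapped among all groups. The 4 astrocyte markers reached 1715 to 1866 CPM in HFD, 1244 to 1345 CPM in Control and 805.3 to 1223 CPM in HFD+Mino. The 5 microglia markers reached 199 to 216 CPM in HFD, 137 to 169.8 CPM in Control and 130 to 183 CPM in HFD+Mino. Of these, the group mean was highest in HFD for Cx3cr1, Tmem119 and Csf1r, and barely so for P2ry12 (log2 difference from Control 0.02). Aif1 went the other way, at -0.49 for HFD against Control and 1.36 for HFD+Mino against HFD. Among the astrocyte markers the mean was highest in HFD for Aqp4, Slc1a3 and Aldh1l1. Gfap was lower in HFD than in Control (-0.63). Control replicate 1 held 508 CPM of it, and Control replicates 2 and 3 held 152 and 139. The 4 oligodendrocyte markers spanned 3212 to 26899 CPM in Control, with the top in Control replicate 1, 2208 to 6065 CPM in HFD and 1916 to 5217 CPM in HFD+Mino. No marker of these 3 lists was called in any comparison, and none was at 0 in every sample. The 2 markers of oligodendrocyte precursors, Pdgfra and Cspg4, summed to 62.6 to 73.0 CPM in HFD, 27.8 to 49.99 CPM in Control and 24.6 to 31.2 CPM in HFD+Mino, without overlap between HFD and the others. HFD lay above the 6 other samples for 13.4% of all genes and for 35.2% in the longest length class, where both markers fall. Pdgfra alone overlapped with Control and was not called (0.67 in HFD against Control, adjusted p = 0.202). Cspg4, a surface proteoglycan of these cells, was called higher in HFD than in Control (1.62, adjusted p = 0.00449), lower in HFD+Mino than in HFD (-1.71, adjusted p = 0.00354) and higher in HFD in the 3-way test. The shares of all genes called in these directions were 0.317%, 2.16% and 0.917%. The part of these cells in the members' differences was not tested. Irs1 shares 2822 nt of exon with Gm9747, Irs2 162 nt with 9530052E02Rik and Foxo1 674 nt with Gm20402, each on the opposite strand, and whether reads were counted by strand is not stated.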

How the data were processed

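Reads were mapped by the authors to the mm10 genome (HISAT2) and summed per gene (featureCounts), and the count of each gene in each sample was deposited raw. Versions, the strand setting and the handling of reads with several positions are not given in the sources used here. All 9 columns held whole numbers and 0 sample columns were left unused. Of 27179 rows, 958 carry no symbol and were kept. Totals were 17728590 to 42326213 counts, so precision comes from the spread between mice.

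Genes passing filterByExpr (17344) were fitted with edgeR 4.0.16 (TMM, glmQLFit, 1 mean per group over 9 samples) in R 4.3.3, and SEs are the log2 fold change over the root of its F statistic. Ratios used log2 of counts plus 0.5 and all 1680 assignments of samples to groups. Exon lengths came from GENCODE M21 (15626 of the tested genes), and positions and promoters from RefSeq. Length and GC trends were removed by lowess (span 0.3). Code was tested on simulated data. Alternatives were DESeq2 1.42.0, the likelihood ratio test, RLE factors, other filters and thresholds, 6-sample fits, each sample left out, Rn45s and mitochondrial genes left out, and replicate blocks.

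Same-numbered Control and HFD+Mino samples deviated together (correlations 0.135, 0.163 and 0.292), while those of Control and HFD (-0.133, -0.109 and -0.006) and of HFD and HFD+Mino (-0.152, -0.125 and -0.052) did not. Differently numbered samples of Control and HFD reached 0.167, and those of HFD and HFD+Mino reached 0.114. The pairing of Control and HFD+Mino comes from these counts alone. Members, gene lists and tests were chosen with earlier results of these data known. Named beyond the 9 members were listed genes called in any test, the 3 genes most correlated with a member (those of Insr and some of Akt1, Irs1 and Gsk3b are named, and the others are not reported here), and marker lists. Sim1, Avp, Oxt and Crh stand for the PVN list. Genes of the other listed roles and the roles with HFD apart were named after their values were seen.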

Additional observations from a re-analysis of the deposited data

How the results depend on the processing

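None of the 9 genes was called at the reported settings, and all calls below are counts out of 9 unless another list is named. In the 3-way test the count was 3 with DESeq2, 2 with the likelihood ratio test, 1 with no filter on low counts, 3 with the replicate block in Control and HFD+Mino alone, 1 with the GC trend removed and 3 at an adjusted p under 0.05. Between HFD and Control it was 3 with DESeq2, 3 with the likelihood ratio test, 1 with no filter, 1 with the replicate block in all samples, 2 with the block in Control and HFD+Mino alone, 1 with the length trend removed, 1 with the GC trend removed, 3 in the 6-sample fit and 3 at an adjusted p under 0.05. Between HFD+Mino and HFD it was 3 with DESeq2, 3 with the likelihood ratio test, 3 with the block in Control and HFD+Mino alone, 1 with the length trend removed and 5 at an adjusted p under 0.05. Leaving out 1 sample gave 0 to 3, 0 to 2, 0 to 1 and, between HFD+Mino and Control, 0 to 3, where the 3 came without HFD+Mino replicate 3. The shares of all genes called in these settings were, in the same order, 13.6%, 12.9%, 5.19%, 13.2%, 3.76% and 13.0% in the 3-way test (2.13% as reported), 6.91%, 5.57%, 1.92%, 1.64%, 6.22%, 2.38%, 2.91%, 3.67% and 5.77% between HFD and Control (1.74%), and 23.0%, 19.1%, 25.6%, 2.70% and 27.4% between HFD+Mino and HFD (4.15%). Without HFD+Mino replicate 3 the 3-way test called Akt1, Akt2 and Insr. The shares of all genes were then 13.4%, 3.08%, 21.4% and, between HFD+Mino and Control, 6.28%. Akt1 was among the members called in each of these settings of the 3-way test and of HFD against Control that called any member. No member was called in either test with RLE factors, at a mean count of at least 50, or with Rn45s and mitochondrial genes left out. Nor was any called without any single Control or HFD sample, or without HFD+Mino replicate 1. Of 45 other pathway genes, the 3-way count of 2 became 14 with DESeq2, 12 with the likelihood ratio test, 8 with no filter, 4 at a mean count of at least 50, 14 with the block in Control and HFD+Mino alone, 6 with the GC trend removed, 13 at an adjusted p under 0.05 and 0 to 11 without 1 sample. Their count of 1 between HFD and Control became 9, 7, 2, 2, 10, 2, 3 in the 6-sample fit, 6 and 0 to 2 in the same order, and their count of 6 between HFD+Mino and HFD became 14 with DESeq2, 13 with the likelihood ratio test, 17 with the block, 2 with the length trend removed, 18 at an adjusted p under 0.05 and 0 to 17 without 1 sample. Between HFD+Mino and Control 0 to 3 were called without 1 sample. The 1 FOXO target became 3 with DESeq2, 2 with the likelihood ratio test, 2 and 3 with the 2 blocks, 3 at an adjusted p under 0.05 and 0 to 5 without 1 sample.

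Directions reversed for members only where the reported difference was between -0.14 and 0.31. For Igf1r, HFD+Mino against HFD was 0.53 with the length trend removed and -0.30 to 0.11 without 1 sample, above 0 without HFD replicate 3 (0.09) or HFD+Mino replicate 3, and its HFD distance from the mean was -0.085 with the length trend removed. For Irs1, HFD+Mino against Control was -0.024 to 0.17 without 1 sample, below 0 without Control replicate 1, HFD+Mino replicate 1 or HFD+Mino replicate 2. For Irs2, HFD+Mino against HFD was 0.29 with the length trend removed and -1.38 to 0.42 without 1 sample, above 0 without HFD+Mino replicate 1 or 2, and its HFD distance was 0.035 with the replicate block and -0.30 to 0.30 without 1 sample, above 0 without HFD+Mino replicate 3. The ratio tests of Insr to Igf1r (0.416), Akt1 to Akt2 (-1.75) and Foxo1 to Foxo3 (-2.12, log2 distance of HFD from the average group) missed 0.05 with the replicate block (adjusted p = 0.0741), where the smallest p possible is larger. Without 1 sample the distance for Foxo1 to Foxo3 ranged from -2.35 to -1.85, and that for Irs1 to Irs2 from 0.0866 to 0.705, with an adjusted p of 0.0143 without HFD+Mino replicate 3. The cause was not tested in any of these. The block changed no other call of the members than those named here and in the results. With 3 mice per group, leaving out 1 HFD sample brought the share of all genes called in the 3-way test from 2.13% to between 0.0168% and 0.0779%. Foxo3 is limited by its depth.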
